A study of Mus musculus with 6 samples.

Results

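The interstitial collagens, their modifying enzymes and Cthrc1 were followed in sorted ureteric bud cells of E15.5 mouse kidneys. Members were chosen by gene symbol: the collagen chains with a probe set of their own, leaving out types IV, XV and XVIII, together with named genes that modify, fold or accompany collagen. Of 19296 genes measured, 47 met the rule, 36 of them collagen chains. The other 11 were lysyl oxidases, collagen hydroxylases, the chaperone Serpinh1 and the secreted protein Cthrc1. Loxl2 shares its only probe set with another gene, Gm21451, and was not analysed here.

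The 3 Dicer mutant arrays held cells of Dicerc/-; Hoxb7Cre; Rosa26YFP embryos, and the 3 control arrays held cells whose genotype is given as wild type (control). Hoxb7Cre drives recombination in the ureteric bud lineage, where it removes the conditional Dicer allele, while the other allele is null in every cell of the embryo. Both groups came from a mixed strain background, and cells were sorted after trypsin treatment for YFP, the reporter that Cre switches on. Whether the control embryos carried Hoxb7Cre and Rosa26YFP is not stated. If they did not, effects of these transgenes and of the Dicer genotype cannot be told apart. The samples are labelled biological replicates, but whether kidneys were pooled is not stated, and neither is any batch or date.

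Collagen chains assemble in threes in the endoplasmic reticulum, where prolyl and lysyl hydroxylases modify them and the chaperone Serpinh1 (Hsp47) holds the folded triple helix. The procollagen is exported in large carriers, trimmed outside the cell, assembled into fibrils and cross-linked by lysyl oxidases. In the developing kidney fibrillar collagens are mainly products of stromal cells, while the ureteric bud is an epithelium that rests on a basement membrane. Dicer cuts precursor hairpins into mature miRNAs, among them the miR-29 family, which is well known for repressing collagen mRNAs in fibroblasts. Its 3 mature forms are shown because they share one seed, given in capitals (bases 2 to 8, 5′ to 3′, RefSeq, GRCm38.p6). They lie at chr6:31062673-31062694 on the minus strand (miR-29a), and at chr1:195037091-195037113 (miR-29b, one of its loci) and chr1:195037600-195037621 (miR-29c) on the plus strand. Mature miRNAs were not analysed here, and pairing of these seeds with member transcripts was not tested.
mmu-miR-29a-3p: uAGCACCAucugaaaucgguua
mmu-miR-29b-3p: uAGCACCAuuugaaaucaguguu
mmu-miR-29c-3p: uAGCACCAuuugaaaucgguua

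Expression is given as RMA values (log2), so a difference of 1 is 2-fold, and a gene passed where limma's adjusted p over all 19296 genes was below 0.05. Array medians were 7.47 to 7.54. Dicer1, the targeted gene, had values of 9.80, 9.72 and 9.64 in mutant cells, against 10.31, 10.38 and 10.25 in control cells. Its log2 difference was -0.59 with a standard error of 0.06 (limma, adjusted p = 0.000500), and an exact permutation test of 3 against 3 gave 0.1, the smallest p it allows. Whether its probes lie in the deleted part is not given.

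All 15 ureteric bud markers examined were above 7.51, the median of all probe sets, on average in mutant as in control cells. Of all 19296 genes, 9617 were above it in mutant cells and 9675 in control cells. The bud markers averaged 8.89 to 12.78 in mutant cells and 9.71 to 13.02 in control cells. Of these 15, Wnt9b rose (log2 difference 1.42), 8 fell and 6 did not pass. The 8 are 53.3% of the 15, against 20.3% of all genes above that median over all arrays. The fallen ones were Krt19 (log2 difference -1.19), Wnt11 (-0.60) and Ret, Gfra1, Hoxb7, Gata3, Calb1 and Krt8 (-0.40 to -0.24). Of the 16 markers of renal stroma and fibroblasts, none was above that median in mutant cells and 1, Acta2, was in control cells. None of these 16 rose, Acta2 fell (log2 difference -0.72; limma, adjusted p = 0.0168) and 15 did not pass. The fall of Acta2 is 6.25% of the 16. Of all genes 13.9% fell, and of those below 7.51 over all arrays 7.58% fell. Acta2 itself averaged 7.82 over all arrays. The summed linear signal of the 16 was 1400 to 1467 units in mutant cells, against 1454 to 1679 in control cells. This sum includes Acta2, the brightest of the 16 in both groups (7.46 in mutant and 8.18 in control cells on average). The sum of the other 15 was not taken, so a fall over the whole list cannot be read from it. In sorted populations, fewer cells of a type and less RNA per cell cannot be told apart.

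The 47 genes did not shift as a block. In the mutant cells 7 of them rose, 4 fell and 36 did not pass. The 11 that passed are 23.4% of the 47, near the 25.8% of all 19296 genes called in either direction. The 7 risen genes are 14.9% of the 47, against 11.8% of all genes, and the 4 fallen genes 8.51%, against 13.9% of all genes. By role, the risen genes were Cthrc1, 2 lysyl oxidases (Loxl1, Loxl3), 2 hydroxylases (P4ha3, Plod3) and 2 collagen chains (Col2a1, Col12a1). The 4 fallen genes were all collagen chains (Col5a2, Col14a1, Col6a6, Col11a1). The members that changed by 2-fold or more were Cthrc1 and Col2a1, both upward. Changes of that size were found in 1.08% of all genes, and upward in 0.746%.

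**Figure D1:**
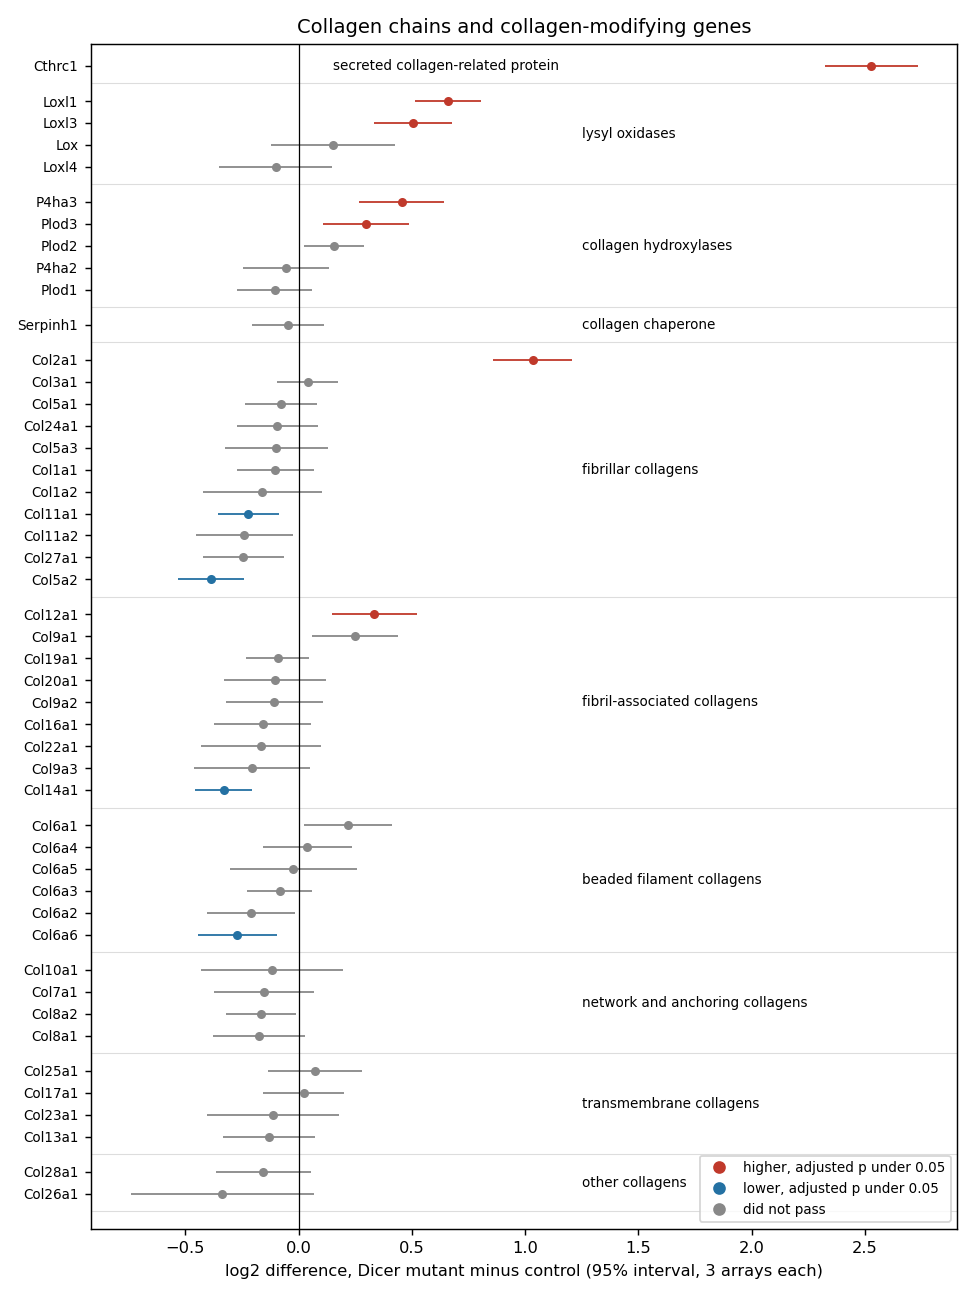
Log2 difference (Dicer mutant minus control, x axis) of each of the 47 genes with its 95% interval from limma (3 arrays each), grouped by role down the page. Cthrc1 stands far to the right at 2.53, Col2a1 follows at 1.03, and all other collagen chains lie between -0.39 and 0.34.

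Cthrc1, a secreted protein with a short collagen-like stretch that is known for promoting cell migration and for modulating Wnt signalling, changed most. Its values were 10.76, 10.92 and 10.76 in mutant cells, against 8.19, 8.47 and 8.20 in control cells. Every mutant array lay more than 2 log2 units above every control array. The log2 difference of 2.53 (standard error 0.09, 95% interval 2.32 to 2.73) is a 5.77-fold rise (limma, adjusted p = 7.23e-06). Of all 19296 genes, 6 had a larger rise. Across 13 alternative analyses its log2 difference stayed between 2.47 and 2.62.

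Lysyl oxidases oxidise lysines of collagen and elastin so that neighbouring molecules cross-link. Of the 4 measured here, 2 rose and 2 did not pass. The risen ones are 50% of the 4, against 11.8% of all genes. Loxl1, known above all for its part in elastic fibres, had 8.43, 8.57 and 8.41 in mutant cells, against 7.87, 7.78 and 7.78 in control cells, with no overlap. Its log2 difference of 0.66 (standard error 0.06) is a 1.58-fold rise (limma, adjusted p = 0.000303). Loxl3, a family member needed for normal palate and spine development in mice, had 8.25, 8.33 and 8.32 in mutant cells, against 7.93, 7.68 and 7.78 in control cells. These groups were also apart, with a log2 difference of 0.50 and a 1.42-fold rise (standard error 0.07 on the log2 scale; limma, adjusted p = 0.00207). Lox itself, the founding member of the family, averaged 5.37 ± 0.20 in mutant cells and 5.22 ± 0.17 in control cells (SD, n = 3 each). Its log2 difference of 0.15 did not pass, with a 95% interval from -0.12 to 0.42. Loxl4 averaged 6.16 ± 0.16 in mutant cells and 6.26 ± 0.17 in control cells (SD, n = 3 each) and did not pass either, and its second probe set had a log2 difference of -0.11, close to the -0.10 of the one used.

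Collagen hydroxylases act inside the endoplasmic reticulum. Prolyl 4-hydroxylases make the triple helix stable at body temperature, and lysyl hydroxylases create sites for glycosylation and cross-links. Of the 5 measured, 2 rose and 3 did not pass. The risen ones are 40% of the 5, against 11.8% of all genes. P4ha3, a catalytic subunit of prolyl 4-hydroxylase, had 8.39, 8.46 and 8.17 in mutant cells, against 7.91, 7.86 and 7.89 in control cells. All mutant arrays lay above all control arrays, by a log2 difference of 0.45 (standard error 0.08; 1.37-fold; limma, adjusted p = 0.00475). The related subunit P4ha2 averaged 6.47 ± 0.06 in mutant cells and 6.53 ± 0.15 in control cells (SD, n = 3 each) and did not pass. Plod3, a lysyl hydroxylase that also adds sugars to hydroxylysine, had 9.46, 9.56 and 9.27 in mutant cells, against 9.17, 9.07 and 9.15 in control cells. The groups were apart by a log2 difference of 0.30 (standard error 0.08; limma, adjusted p = 0.0300). This rise did not pass without mutant replicate 1 or 2 or without any 1 of the control replicates, with limma's adjusted p up to 0.0962.

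The other 2 lysyl hydroxylases did not pass. Plod2, which modifies the telopeptides that carry cross-links, had 10.46, 10.46 and 10.47 in mutant cells, against 10.32, 10.37 and 10.23 in control cells. The groups did not overlap, but the log2 difference of 0.16 missed the threshold (limma, adjusted p = 0.0837), with a 95% interval from 0.02 to 0.29. It passed as higher in 3 of 13 alternative analyses: with median centring, without dim genes and with a variance trend (limma, adjusted p down to 0.0214). Plod1, which modifies the helix, averaged 10.60 ± 0.07 in mutant cells and 10.70 ± 0.11 in control cells (SD, n = 3 each). Serpinh1, the collagen-specific chaperone, had values between 10.93 and 10.98 in mutant cells and between 10.89 and 11.11 in control cells. Its log2 difference of -0.05 did not pass and had a 95% interval from -0.20 to 0.11, so a change of over 1.15-fold in either direction lies outside it.

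The 250 bases before the RefSeq start (GRCm38.p6) are shown for P4ha3 and Plod3, the risen enzymes for which a sequence was at hand. They lie at chr7:100285270-100285519 and chr5:136986769-136987018, both on the plus strand, written 5′ to 3′. Capitals mark matches on either strand to the GC box GGGCGG, bound by Sp family factors, to the TATA box TATAAA and to ACGTG, the core of hypoxia response elements. Neighbouring matches may overlap. P4ha3 held 5 GC boxes and no match to the other 2 motifs, and Plod3 held 1 hypoxia response core and no other match.
P4ha3: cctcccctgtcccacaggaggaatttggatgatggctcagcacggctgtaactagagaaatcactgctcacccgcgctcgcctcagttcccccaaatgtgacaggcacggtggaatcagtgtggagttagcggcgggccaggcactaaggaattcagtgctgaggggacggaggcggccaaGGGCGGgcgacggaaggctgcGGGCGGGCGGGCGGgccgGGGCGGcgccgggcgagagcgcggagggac
Plod3: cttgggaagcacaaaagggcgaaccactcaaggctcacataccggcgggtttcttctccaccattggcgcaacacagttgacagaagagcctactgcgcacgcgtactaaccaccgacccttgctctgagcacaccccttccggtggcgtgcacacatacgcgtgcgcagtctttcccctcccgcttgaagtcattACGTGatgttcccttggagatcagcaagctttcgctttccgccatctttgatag

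Promoters of 34 of the 47 genes were available, in 36 windows. A GC box was found in 23 of the 36 windows (63.9%), against 42.6% of 21262 windows of protein-coding genes. ACGTG was found in 7 windows (19.4%, against 17.8%) and TATAAA in 6 (16.7%, against 11.6%). These matches describe the letters only.

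**Figure D2:**
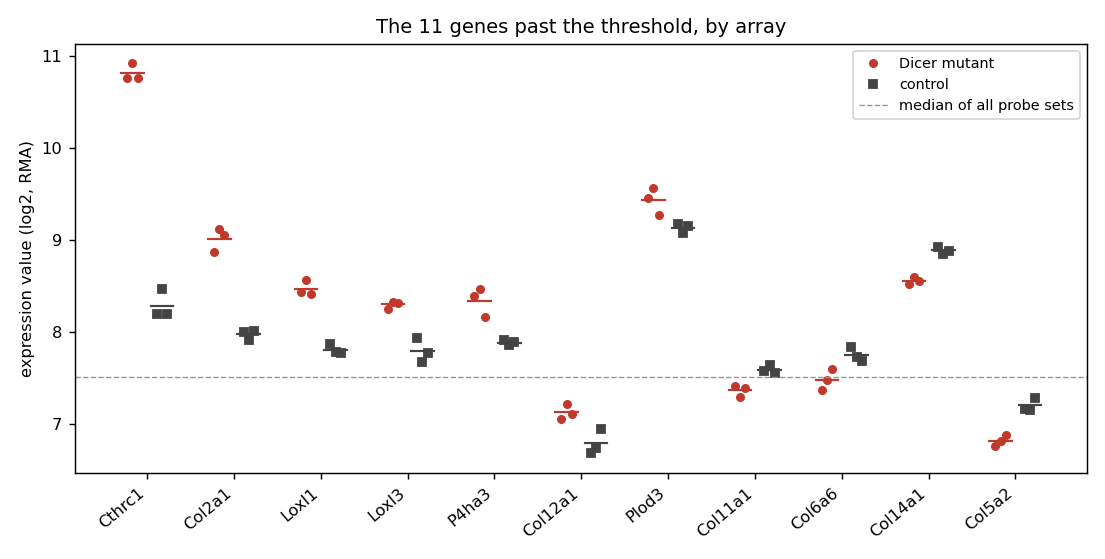
RMA expression value (log2, y axis) on each array of the 11 genes that passed the threshold, ordered by log2 difference, with Dicer mutant arrays (circles) left of control arrays (squares) and short lines at the means. The groups do not overlap for any of the 11, and the gap is widest for Cthrc1, at 10.76 to 10.92 in mutant cells against 8.19 to 8.47 in control cells.

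Fibrillar collagens form the cross-striated fibrils of connective tissue. Of 11 chains, 1 rose, 2 fell and 8 did not pass, and the median log2 difference was -0.10, beside -0.05 over all genes. The risen one is 9.09% of the 11, against 11.8% of all genes, and the fallen ones 18.2%, against 13.9%. Col2a1, the main chain of cartilage fibrils, had 8.87, 9.12 and 9.05 in mutant cells, against 8.01, 7.92 and 8.02 in control cells. All mutant values exceeded all control values by a wide margin. The log2 difference was 1.03 (standard error 0.08), a 2.05-fold rise with a 95% interval of 1.81-fold to 2.31-fold (limma, adjusted p = 0.000106). Col2a1 passed in all 13 alternative analyses, with log2 differences of 0.98 to 1.11.

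Of the 5 chains that accompany Col2a1 in cartilage fibrils 1 fell and 4 did not pass, where 13.9% of all genes fell. Col11a1 had 7.41, 7.30 and 7.40 in mutant cells, against 7.58, 7.64 and 7.55 in control cells, and fell by 0.22 on the log2 scale (standard error 0.06; limma, adjusted p = 0.0261). This call was lost in 8 of 13 alternative analyses: without any 1 mutant replicate, without control replicate 1 or 2, with a replicate block, with quantile normalization and with median centring (limma, adjusted p up to 0.0883). Col11a2 averaged 7.37 ± 0.13 in mutant cells and 7.61 ± 0.14 in control cells (SD, n = 3 each), a log2 difference of -0.24 that did not pass (limma, adjusted p = 0.0986) but passed as lower in 2 of 13 alternative analyses, without control replicate 3 and without dim genes. The type IX chains decorate the same fibrils. Col9a1 had 7.47, 7.55 and 7.69 in mutant cells, against 7.40, 7.38 and 7.19 in control cells, with no overlap, and its log2 difference of 0.25 did not pass (limma, adjusted p = 0.0621). It passed as higher in 4 of 13 alternative analyses: with quantile normalization, with median centring, without dim genes and with a variance trend (limma, adjusted p down to 0.0234). Col9a2 had a log2 difference of -0.11 and Col9a3 one of -0.21, and neither passed.

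Col5a2, a chain of type V collagen, which starts the assembly of type I fibrils, had 6.76, 6.81 and 6.88 in mutant cells, against 7.17, 7.16 and 7.29 in control cells. The arrays of the groups were cleanly apart. It fell by 0.39 on the log2 scale (standard error 0.06; 1.31-fold lower; limma, adjusted p = 0.00313). Its partner chain Col5a1 averaged 7.41 ± 0.06 in mutant cells and 7.49 ± 0.10 in control cells (SD, n = 3 each), and Col5a3 had a log2 difference of -0.10. Neither of these passed.

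None of the classical stromal collagens of types I and III passed. Col1a1 had 7.76, 7.83 and 7.76 in mutant cells, against 8.02, 7.86 and 7.77 in control cells. Its partner Col1a2 had 7.45, 7.71 and 7.49 in mutant cells, against 7.92, 7.71 and 7.504 in control cells. For both chains the groups overlapped, with control replicate 1 highest. Their log2 differences were -0.10 and -0.16, with 95% intervals from -0.27 to 0.07 and from -0.42 to 0.10. Col3a1, which forms fine fibrils with type I collagen, averaged 7.42 ± 0.03 in mutant cells and 7.38 ± 0.07 in control cells (SD, n = 3 each). Its interval, from -0.09 to 0.18, likewise spans 0. Col24a1 and Col27a1, 2 fibrillar chains found mainly in bone and cartilage, had log2 differences of -0.09 and -0.24 and did not pass, Col27a1 narrowly (limma, adjusted p = 0.0522). Col27a1 passed as lower in 4 of 13 alternative analyses: without control replicate 3, without dim genes, with a variance trend and with array weights (limma, adjusted p down to 0.0165).

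Fibril-associated collagens bind to fibril surfaces. Of 9 chains, 1 rose, 1 fell and 7 did not pass. Each of the first 2 counts is 11.1% of the 9, where 11.8% of all genes rose and 13.9% fell. Col14a1 had 8.52, 8.60 and 8.56 in mutant cells, against 8.93, 8.85 and 8.89 in control cells. It fell by 0.33 on the log2 scale (standard error 0.05; 1.26-fold lower; limma, adjusted p = 0.00334) and passed in all 13 alternative analyses. Col12a1, its close relative, rose. It had 7.05, 7.22 and 7.11 in mutant cells, against 6.69, 6.75 and 6.95 in control cells, a log2 difference of 0.34 (standard error 0.08; limma, adjusted p = 0.0192). Without mutant replicate 2 or 3 or control replicate 1 or 2 this rise did not pass, with limma's adjusted p up to 0.0717. Col16a1, Col19a1, Col20a1 and Col22a1 had log2 differences between -0.17 and -0.09 and did not pass.

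Type VI collagen forms beaded filaments close to cells. Of its 6 chains 1 fell and 5 did not pass. The fallen one is 16.7% of the 6, against 13.9% of all genes. Col6a6 had 7.37, 7.48 and 7.60 in mutant cells, against 7.84, 7.73 and 7.69 in control cells, and fell by 0.27 on the log2 scale (standard error 0.08; limma, adjusted p = 0.0331). Its second probe set had a log2 difference of -0.29. The call was lost in 6 of 13 alternative analyses: without mutant replicate 1 or 2, without control replicate 1 or 2, with a replicate block and with median centring (limma, adjusted p up to 0.119). The 3 chains of the classical heterotrimer, Col6a1, Col6a2 and Col6a3, had log2 differences of 0.22, -0.21 and -0.08, and Col6a4 and Col6a5 had 0.04 and -0.02. None of these 5 passed, although Col6a1 passed as higher in 3 of 13 alternative analyses: without control replicate 1, with quantile normalization and without dim genes (limma, adjusted p down to 0.0311).

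The remaining 10 chains were the network-forming and anchoring, transmembrane and unclassified ones, and none passed, where 25.8% of all genes did. Col7a1, of the anchoring fibrils beneath epithelia, averaged 7.29 ± 0.07 in mutant cells and 7.44 ± 0.19 in control cells (SD, n = 3 each). Col17a1, the hemidesmosome collagen of basal epithelial cells, averaged 6.87 ± 0.14 in mutant cells and 6.85 ± 0.04 in control cells (SD, n = 3 each). Col8a1, Col8a2 and Col10a1, which form networks, had log2 differences between -0.17 and -0.12, and the transmembrane chains Col13a1, Col23a1 and Col25a1 between -0.13 and 0.07. Col28a1 had one of -0.16. Col26a1 had the widest interval of the 36 chains, from -0.74 to 0.07. Its values were 7.94, 7.84 and 7.80 in mutant cells, against 8.39, 8.46 and 7.73 in control cells. Control replicate 3 lay below all mutant arrays, whereas the other 2 control arrays lay above them.

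Probe sets with low values pass less often, and their values also depend on the probes. Over the mean of all 6 arrays, 10 of the 36 collagen chains and 8 of the 11 enzymes and other genes were above 7.51. Among all genes, 39.6% above this value passed and 11.9% below it. Of the 10 chains above it 1 rose and 2 fell, where 19.3% of all such genes rose and 20.3% fell. Of the 26 chains below it 1 rose and 2 fell, where 4.34% of all such genes rose and 7.58% fell. Of the 8 enzymes and other genes above it, 5 rose and none fell. The arrays of the groups did not overlap for 16 of the 47 members (9 higher and 7 lower), a smaller share than the 42.5% of all genes.

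**Figure D3:**
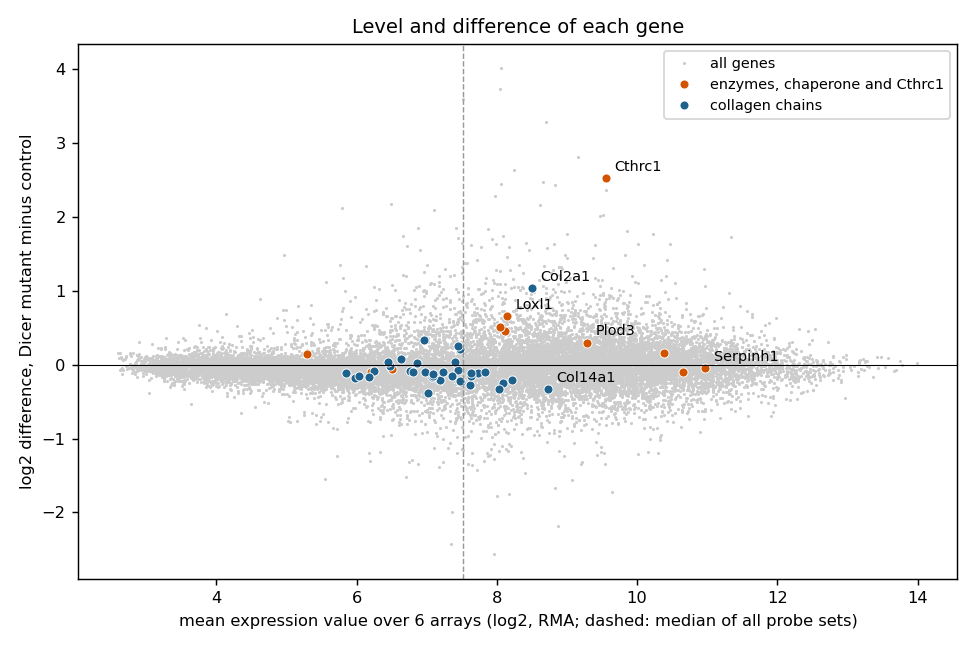
Mean RMA value over all 6 arrays (log2, x axis) against the log2 difference (Dicer mutant minus control, y axis) for all 19296 genes (grey), the 36 collagen chains (blue) and the other 11 members (orange); the dashed line is the median of all probe sets, 7.51. Most collagen chains lie left of the dashed line close to a difference of 0, with Col2a1 apart from them, and Cthrc1 lies at the upper edge of the cloud.

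Of the 36 chains, 28 had a log2 difference below 0, as had 61.7% of all genes, and their median was -0.12. The mean value of the 36 chains was 7.11, 7.13 and 7.22 on the mutant arrays, against 7.34, 7.24 and 7.11 on the control arrays. The groups overlapped, since control replicate 3 was close to the lowest mutant array. Without control replicate 3, 11 members fell in place of 4, and the share of all genes that fell was 15.4%, against 13.9% with it. The added ones were Col11a2, Col16a1, Col22a1, Col26a1, Col27a1, Col6a2 and Col7a1.

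Endothelial markers were also low in control replicate 3. The mean of 10 such markers was 6.33, 6.46 and 6.64 on the mutant arrays, against 6.86, 6.91 and 6.47 on the control arrays. Of these 10, 1 fell (Plvap, log2 difference -0.42; limma, adjusted p = 0.0197) and 9 did not pass, and none averaged above 7.51 in either group. The fall is 10% of the 10, against 7.58% of all genes below 7.51 over all arrays. The summed linear signal of the 10 was 820 to 1028 units in mutant cells, against 912 to 1247 in control cells. Of 6 smooth muscle markers, 3 fell (Myh11, Cnn1 and Myocd, log2 differences -0.33, -0.30 and -0.26) and 3 did not pass. The falls are 50% of the 6, against the same 7.58%. The summed linear signal of the 6 was 440 to 461 units in mutant cells, against 514 to 552 in control cells. Of 8 blood and immune markers, 1 fell (Ptprc, log2 difference -0.45; limma, adjusted p = 0.0155) and 7 did not pass. The fall of Ptprc is 12.5% of the 8, against 7.58%. The part of such cells in the collagen values was not tested.

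**Figure D4:**
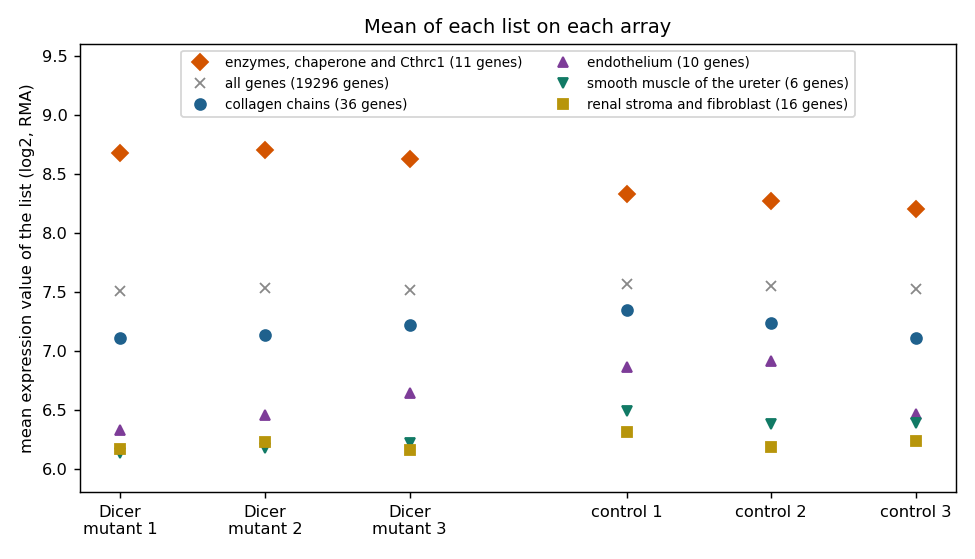
Mean RMA value (log2, y axis) of each gene list on each of the 3 Dicer mutant arrays (left) and 3 control arrays (right). The 36 collagen chains and the endothelial markers overlap between groups. For both, control replicate 3 is lowest among the controls, as it is for all genes and for the 11 enzymes and other members. These 11 members are higher on every mutant array (8.63 to 8.705) than on any control array (8.20 to 8.33). Without Cthrc1 the other 10 average 8.41 to 8.48 on the mutant arrays and 8.20 to 8.34 on the control arrays.

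Cap mesenchyme markers were examined because these cells adjoin the bud tips. Of 10 markers, Six2 rose (log2 difference 3.29; 9.78-fold; limma, adjusted p = 3.29e-06), Osr1 fell (log2 difference -0.67) and 8 did not pass. Each of Six2 and Osr1 is 10% of the 10. Of all genes, 11.8% rose and 13.9% fell. The summed linear signal of the 10 was 2501 to 2622 units in mutant cells, against 1455 to 1526 in control cells. Six2 alone made up this excess: the other 9 markers summed to 1232 to 1271 units in mutant cells, against 1299 to 1398 in control cells. The part of such cells in the values of Cthrc1 and Col2a1 was not tested.

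The rest of the collagen pathway was examined through genes outside the 47. Of 55 symbols on 5 lists (folding, export, propeptide processing, receptors and fibril-binding proteoglycans), 16 rose, 6 fell and 33 did not pass. The risen ones are 29.1% of the 55, against 11.8% of all genes, and the fallen ones 10.9%, against 13.9% of all genes. Of the 30 symbols above 7.51 over all arrays 14 rose and 4 fell, where 19.3% of all such genes rose and 20.3% fell. Of the 25 below it 2 rose and 2 fell, where 4.34% of all such genes rose and 7.58% fell. The 16 risen symbols lay on 3 lists: folding, export and receptors.

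Of 12 folding and modification genes 5 rose and none fell. The risen ones are 41.7% of the 12, against 11.8% of all genes and 19.3% of those above 7.51 over all arrays. Crtap, part of the complex that hydroxylates proline at position 3, had 10.16, 10.34 and 10.27 in mutant cells, against 9.45, 9.47 and 9.42 in control cells. It rose 1.75-fold (log2 difference 0.81; limma, adjusted p = 0.000127). P3h1, the enzyme of the same complex, and P3h2, a related enzyme, had log2 differences of 0.45 and 0.38. Colgalt1, which adds galactose to hydroxylysine, had one of 0.44, and all 3 passed, although P3h2 did not without control replicate 2 (limma, adjusted p = 0.0518). Ppib, the cyclophilin of the complex, had a log2 difference of -0.16 and P4hb, the beta subunit of prolyl 4-hydroxylase, one of -0.04, and neither passed.

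Export genes moved in both directions, with 6 of 14 symbols higher and 3 lower. These are 42.9% and 21.4% of the 14, against 11.8% and 13.9% of all genes. Of the 14, 13 averaged above 7.51 in mutant cells and 12 in control cells. Above that value over all arrays, 19.3% of all genes rose and 20.3% fell. Mia2 and Ctage5, which the RefSeq table gives as one gene, were measured by separate probe sets, and both were among the 6. The Mia2 probe set had 7.64, 7.75 and 7.37 in mutant cells, against 6.26, 6.43 and 6.33 in control cells (2.38-fold higher; limma, adjusted p = 0.000146). Mia3 (TANGO1), which loads procollagen at exit sites of the endoplasmic reticulum, had 9.71, 9.80 and 9.74 in mutant cells, against 9.32, 9.32 and 9.27 in control cells, a log2 difference of 0.44. Sec23a, a subunit of the vesicle coat, had a log2 difference of 0.98. Sar1a, the GTPase that starts coat assembly, fell by 0.42 on the log2 scale, with no overlap between groups.

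Of 10 collagen receptors, 5 rose, 1 fell and 4 did not pass. The risen ones are 50% of the 10, against 11.8% of all genes, and the fallen one 10%, against 13.9%. Mrc2 (Endo180), which takes up collagen for degradation, had 8.66, 8.97 and 8.72 in mutant cells, against 6.98, 7.11 and 7.18 in control cells. This 3.24-fold rise was the largest on the 5 lists (log2 difference 1.69; limma, adjusted p = 3.44e-05). Itga2, the alpha subunit of a collagen-binding integrin, had 9.67, 9.78 and 9.58 in mutant cells, against 8.87, 8.96 and 8.92 in control cells (1.70-fold higher). Itga1, the alpha subunit of another collagen-binding integrin, fell by 0.22 on the log2 scale, a call lost without mutant replicate 1 or 3 or control replicate 2 and with a replicate block (limma, adjusted p up to 0.0757). Ddr1, the collagen-binding receptor tyrosine kinase of epithelia, had a log2 difference of 0.50 (limma, adjusted p = 0.000548). Ddr2, its counterpart in mesenchymal cells, averaged 5.64 in mutant cells and 5.64 in control cells.

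Propeptide-processing genes and fibril-binding proteoglycans were examined for steps outside the cell. Of these 19 genes 17 lay below 7.51 over all arrays, and 2 of the 19 passed (10.5%), near the 11.9% of all genes below that value. Of 9 propeptide-processing genes, 1 fell and 8 did not pass. The one that fell was Mep1a, a subunit of the meprin metalloprotease (log2 difference -0.86; limma, adjusted p = 0.00774). Bmp1, the main procollagen C-proteinase, had a log2 difference of -0.12 and Pcolce, its enhancer, one of 0.27 (limma, adjusted p = 0.0507). Of 10 fibril-binding proteoglycans, Prelp fell by 0.29 on the log2 scale and 9 did not pass, and the fall was lost without mutant replicate 1 or 2 or control replicate 2 and with a replicate block (limma, adjusted p up to 0.0871).

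Of the 8 basement membrane collagen chains 2 rose, 1 fell and 5 did not pass. The risen ones are 25% of the 8, against 11.8% of all genes, and the fallen one 12.5%, against 13.9%. Col4a2 rose by a log2 difference of 0.29, a call lost without mutant or control replicate 2 and with a replicate block. Col18a1 rose by 0.25 and did not pass without mutant replicate 1 or with a replicate block. Col4a5 fell by 0.19 on the log2 scale, a call lost in 10 of 12 alternative analyses, each array left out in turn included. Limma's adjusted p reached 0.0661 for Col4a2, 0.0522 for Col18a1 and 0.164 for Col4a5.

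**Figure D5:**
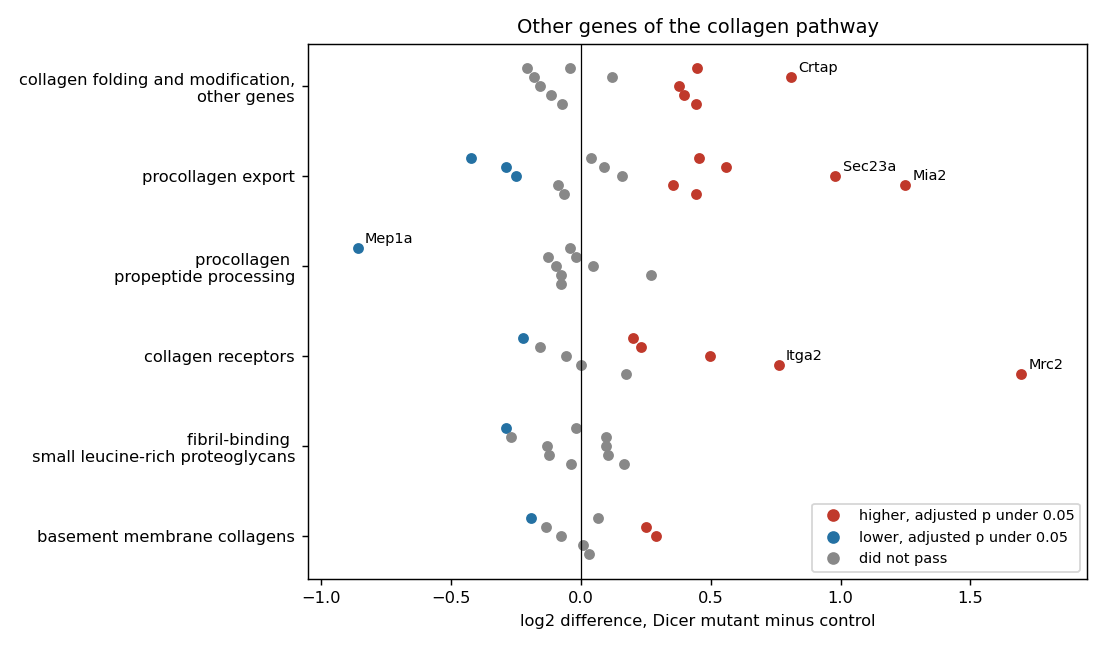
Log2 difference (Dicer mutant minus control, x axis) of each measured gene on 6 further lists of the collagen pathway, red where higher and blue where lower at an adjusted p under 0.05, and grey where it did not pass. Mrc2, Mia2, Sec23a, Crtap and Itga2 lie farthest to the right, from 1.69 to 0.76, and Mep1a farthest to the left at -0.86.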

How the data were processed

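RNA of 6 sorted samples was labelled by the Affymetrix WT protocol, per the labels. The values deposited by the authors are on the log2 scale, 1 for each array and probe set. The submitters' processing notes name RMA and affy; versions, genome build and filters are not stated there. RMA gives arrays a common distribution of probe intensities before probe set values are formed, and compresses changes of genes with low values. The probe set values used here did not share 1 distribution, with array medians of 7.47 to 7.54. The number of arrays limits the precision, and p-values cover only the spread between these 3 samples a group. They are labelled biological replicates, with any pooling of kidneys not stated.

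The platform annotation gave 1 symbol for 20728 of 23309 probe sets, several for 1174, and did not list 1407. Each gene is represented by its probe set of highest average, with no filter on low values. Mutant and control were compared in 1 model over all 19296 genes (limma 3.58.1, R 4.3.3, lmFit and eBayes, two-sided, Benjamini-Hochberg). The fit was tested on simulated data. No 2 arrays shared more than 22 identical values.

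The members and lists were chosen with earlier results of these data known. Named are all members, up to 4 genes per pathway list by smallest p among those past the threshold, marker genes past the threshold, and Dicer1. Ctage5, Ppib, P4hb, Ddr2, Bmp1 and Pcolce were named after their values were seen, as were the motifs chosen. Alternatives were a replicate block, leaving out each array, median centring, quantile normalization, no dim genes, mean of probe sets, variance trend with robust eBayes, array weights and an adjusted p of 0.01. Figures used matplotlib 3.10.9.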

Additional observations from a re-analysis of the deposited data

How the results depend on the processing

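Cthrc1, Col2a1, Loxl1, Loxl3, P4ha3 and Col14a1 passed in all 13 alternative fits, and Col5a2 in the 12 that tested it, since it was removed with the dim genes. The number of members higher was 5 to 6 with an array left out, 6 with the replicate block and 5 to 9 elsewhere. The number lower was less steady. It was 2 with the replicate block, 2 with median centring, 2 at an adjusted p of 0.01 and 2 to 11 with an array left out, the 11 without control replicate 3. At an adjusted p of 0.01, 2790 of all genes passed, against 4975 at 0.05. The median log2 difference of the members stayed between -0.16 and -0.03. Whether the replicate numbers pair the arrays is not stated in the labels. Deviations of same-numbered arrays from their group means correlated at -0.19, -0.10 and -0.22, and no mutant array correlated best with its own number. With 3 arrays a group these correlations cannot exclude a pairing. With the block, Col11a1, Col6a6 and Plod3 no longer passed. Members near 0 changed sign without passing in either fit, and the cause was not tested: Col6a5 (0.053 with quantile normalization, 0.0097 with median centring, -0.154 to 0.102 with an array left out), P4ha2 (0.025 with quantile normalization) and Col17a1 (-0.0099 with array weights). With an array left out, Col17a1 ranged from -0.0514 to 0.0879, Col10a1 from -0.244 to 0.0395, Col23a1 from -0.206 to 0.0078, Col6a4 from -0.0363 to 0.101 and Serpinh1 from -0.102 to 0.0095. Centring on array medians turned the split of all genes to 2696 higher and 2241 lower, against 2285 and 2690 as deposited. The number of arrays and the low values of most chains limit which small differences could pass.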
